A study of Mus musculus with 7 samples.

Results

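The genes described here are 34 transcripts tied to ATF4, a transcription factor of the cellular stress response, out of 55417 gene symbols in the table. They comprise enzymes of serine, glycine, proline, asparagine and cysteine metabolism, mitochondrial folate enzymes, amino acid transporters, and the regulators and effectors of the stress response itself. Members were chosen by gene symbol from these known roles, with the differences between Dpep2-hairpin and control-hairpin libraries already known. Those differences therefore serve as a description of single genes, and counts of members support nothing about the set. All 34 symbols had a row, and 33 passed the filter on low counts. Vldlr, a lipoprotein receptor gene, had 0 counts in every library, where 3 counts would equal 0.164 to 0.181 CPM, the per-million scaling of a count by its library total after TMM scaling (trimmed mean of M-values, which evens out differences in composition).

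The study measured RNA in RAW264.7, an established mouse line of macrophage character, with cells carrying a short hairpin against Dpep2, which encodes a membrane dipeptidase, or the control hairpin shNT. There were 2 libraries with hairpin shDpep2.968, 2 with hairpin shDpep2.759 and 3 with shNT, with total counts of 16548648 to 18401060. No other treatment, time or culture condition is given in the labels, and they do not state whether the libraries of a group came from different cultures. The p-values therefore reflect no more than the scatter among these 7 libraries, which may be technical. Dpep2 stood at 17.9 to 24.9 CPM in the 4 Dpep2-hairpin libraries and at 52.1 to 60.3 CPM in the 3 shNT libraries. Summed markers of macrophages (8 genes, none at 0) ran from 12367 to 13805 CPM with shNT, from 13226 to 13256 with shDpep2.968 and from 15165 to 18472 with shDpep2.759. Lyz2 alone made up most of that sum, at 8817 to 14050 CPM. Itgam was at 896 and 846 CPM with shDpep2.968, below its 1097 to 1340 CPM with shNT, a difference that did not pass the test (edgeR adjusted p = 0.0581), and Adgre1 was lower with shDpep2.968 than with shDpep2.759 (adjusted p = 0.0164). T cell and epithelial markers summed to at most 0.347 and 0.173 CPM in any library, fibroblast markers to at most 2.36, B cell markers to at most 3.2 and endothelial markers to at most 6.71. Of the neutrophil markers, Ly6g had 0 counts in all libraries, S100a9 stayed at or below 0.604 CPM, and S100a8 stood at 17.04 to 33.1 CPM under shNT, 33.9 and 49.5 under shDpep2.968, and 236 and 99.8 under shDpep2.759. In the averaged comparison the macrophage markers Adgre1 and Fcgr1 and the fibroblast marker Dcn rose and no other marker passed the test. Against shNT, 2 macrophage markers and 1 fibroblast marker rose with shDpep2.759 alone, and 0 of either with shDpep2.968 alone. The part of these marker differences in the results below was not tested.

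When amino acids run short, the endoplasmic reticulum is stressed or haem is lacking, kinases phosphorylate the translation factor eIF2. General protein synthesis then slows while ATF4 messenger RNA is translated more, so ATF4 activity is set largely at the protein level. ATF4 binds DNA as a dimer with C/EBP proteins and switches on genes that make, import and recycle amino acids, together with regulators that feed back on the response. Proliferating macrophages draw on the same enzymes for serine, one-carbon units and cysteine.

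The largest decreases, taken as the average of the hairpins, were in genes for metabolic enzymes. These were Pycr1 (proline synthesis), Aldh1l2 (folate cycle), Cth and Cbs (cysteine synthesis) and Pck2, each at 27.9% to 34.4% of the control level. Pycr1 and Cbs had few counts, and Cth had a log2 fold change of -2.21 with shDpep2.968 and -0.97 with shDpep2.759. With both hairpins averaged against shNT, 18 of 33 tested members fell and none rose (edgeR quasi-likelihood test over all 13329 tested genes, Benjamini-Hochberg adjusted p from 6.2e-05 to 0.048). Of all tested genes 4.15% fell and 3.44% rose. Among the members 22 had an unadjusted p under 0.05, of which Ppp1r15a alone was higher, and DESeq2 and limma-voom also called 0 higher. The members' median log2 fold change was -0.41, against 0.00 over all tested genes, and 30 of the 33 had a negative value. All 4 Dpep2-hairpin libraries lay below all 3 shNT libraries for 19 members, and above them for 0, where the whole table has 9.51% and 9.03%. In a bulk sample, fewer cells expressing a gene and less RNA per cell cannot be told apart.

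**Figure D1:**
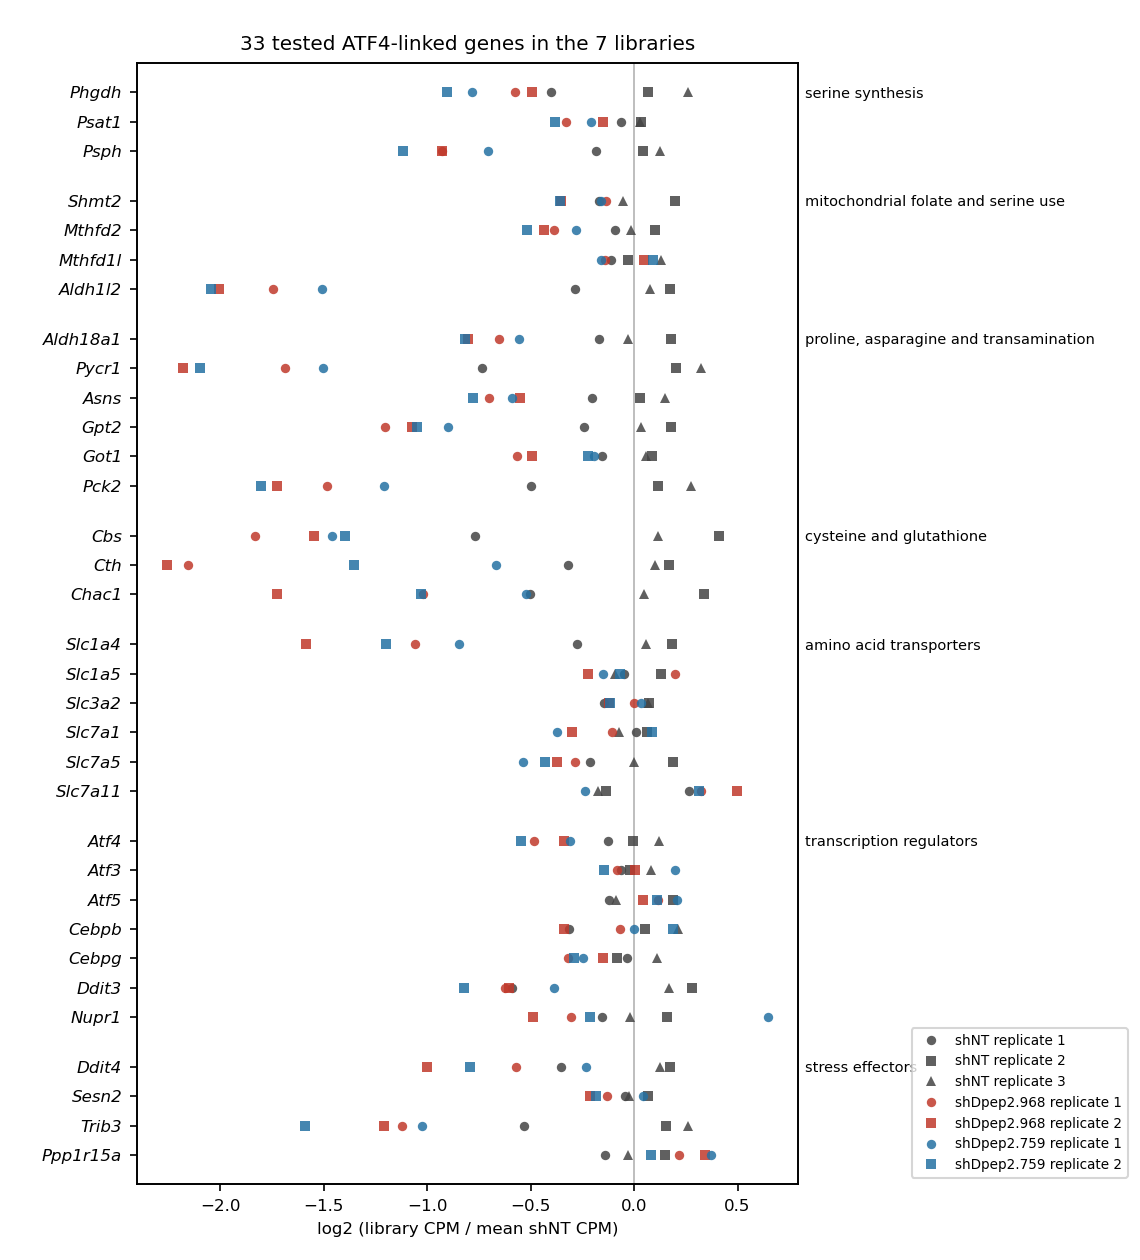
Each row is a tested member, grouped by role, and each point is 1 library, placed by the log2 ratio of its CPM to the mean CPM of the 3 shNT libraries. Points of the Dpep2 hairpins (red and blue) lie to the left of all shNT points (grey) for 19 of the 33 members, with a wide gap for Aldh1l2 (at most 30.3 CPM against at least 70.8), and shNT replicate 1 (grey circle) is often the leftmost shNT point.

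Control libraries differed among themselves in these genes. shNT replicate 1 was the lowest of the 3 shNT libraries for 29 of the 33 tested members, among them all 18 that fell, while it was the lowest for 38.3% of all tested genes and for 393 of the 553 (71.1%) tested genes that fell. Its log2 level minus the mean of the other 2 shNT libraries had a median of -0.24 over the tested members and -0.01 over all tested genes, and ranged among members from -0.91 for Pycr1 to 0.42 for Slc7a11. Without shNT replicate 1 the number of members that fell was 19, while without shNT replicate 2 it was 11 and without shNT replicate 3 it was 10. It was also 11 without shDpep2.968 replicate 2. Calls over all tested genes moved too, from 4.15% lower to 4.55%, 1.38%, 1.25% and 1.86% in these analyses.

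ATF4 and C/EBP dimers are known to bind the sequence TGATGNAA, where N is any base, the core of the C/EBP-ATF response element. It was searched on both strands of the 250 bases before each RefSeq start (build GRCm38.p6), along with the cyclic AMP response palindrome TGACGTCA. Of the 34 members 30 had a promoter entry, with 34 windows in all. Aldh1l2, Cth, Slc1a5 and Slc7a5 had none and were not searched. TGATGNAA was in 9 member windows (26.5%) and in 3.45% of all 32851 windows. Members were chosen as genes tied to ATF4, so this difference cannot serve as evidence about the set. TGACGTCA was in 1 member window, that of Ppp1r15a, and in 1.55% of all windows, and the motifs overlapped in no member. Windows around TGATGNAA are shown for the 8 tested members that hold it, so that each can be set beside the RNA values of its gene; the ninth window was that of Vldlr. Capitals mark the motif on the strand of the gene, written TTGCATCA or TTACATCA where it lies on the opposite strand, and windows are cut to 30 bases where GENCODE M21 has an exon there.
Pycr1, chr11:120643833-120643862, minus strand: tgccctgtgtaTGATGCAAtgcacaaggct
Asns, chr6:7693214-7693243, minus strand: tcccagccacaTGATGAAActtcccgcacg
Pck2, chr14:55540123-55540210, plus strand: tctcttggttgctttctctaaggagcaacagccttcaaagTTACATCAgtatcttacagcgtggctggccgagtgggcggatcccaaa
Got1, chr19:43524660-43524747, minus strand: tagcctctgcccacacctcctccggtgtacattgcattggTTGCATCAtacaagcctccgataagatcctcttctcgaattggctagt
Chac1, chr2:119351038-119351067, plus strand: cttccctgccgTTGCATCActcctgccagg
Slc7a11, chr3:50443661-50443690, minus strand: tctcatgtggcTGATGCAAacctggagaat
Atf3, chr1:191183425-191183454, minus strand: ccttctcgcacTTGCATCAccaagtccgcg
Nupr1, chr7:126625562-126625591, minus strand: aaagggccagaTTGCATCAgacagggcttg

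The motif was present both in promoters of members that fell and in promoters of members that did not. Pycr1, Asns, Pck2, Got1 and Chac1 fell in the averaged comparison, with log2 fold changes from -1.84 to -0.37. Slc7a11, whose window held a further match starting 47 bases before the start, had 0.24, and Atf3 and Nupr1 had -0.00 and -0.06. Psph, Aldh18a1, Gpt2, Slc1a4 and Trib3 fell with each hairpin and had neither motif in these windows, which says nothing of sequence outside them. Aldh1l2 and Cth also fell with each hairpin but had no window to search.

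Serine synthesis begins from a glycolytic intermediate with Phgdh, continues with Psat1 and ends with Psph. Psph fell most of these: it had 62.5, 73.1 and 77.4 CPM under shNT, against 37.2 and 37.3 under shDpep2.968 and 43.5 and 32.7 under shDpep2.759. All 4 Dpep2-hairpin libraries were lower than every shNT library, and the averaged log2 fold change was -0.91 (SE 0.12). Phgdh, the entry enzyme, measured 217, 301 and 344 CPM in the shNT libraries, 193 and 204 in those of shDpep2.968 and 167 and 153 in those of shDpep2.759. The groups did not overlap, although shNT replicate 1 lay close to the shDpep2.968 libraries, and the averaged change was -0.69 (SE 0.14). Leaving out shNT replicate 3 ended that call (edgeR adjusted p = 0.0757). Psat1 ran from 385 to 452 CPM in the Dpep2-hairpin libraries and from 480 to 513 with shNT. Its groups did not overlap either, but its averaged log2 fold change of -0.26 (95% interval -0.49 to -0.04) did not pass the threshold.

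Mitochondrial folate enzymes take the carbon unit that serine gives up when Shmt2 converts it to glycine. Aldh1l2, which oxidises formyl-tetrahydrofolate in mitochondria, stood apart from the other 3 in this group. It had 70.8, 97.2 and 91.1 CPM under shNT, against 25.8 and 21.5 under shDpep2.968 and 30.3 and 20.9 under shDpep2.759. The highest Dpep2-hairpin library was thus below the lowest control, and the averaged level was 28.5% of shNT (95% interval of the log2 fold change -2.13 to -1.49). Mthfd2, which acts on methylene-tetrahydrofolate, measured 188, 214 and 198 CPM in the shNT libraries, 153 and 148 in those of shDpep2.968 and 164 and 139 in those of shDpep2.759, and fell by 0.40 (SE 0.10) on the log2 scale. Shmt2 ran from 257 to 301 CPM in the Dpep2-hairpin libraries and from 294 to 379 with shNT, with overlapping groups and a log2 fold change of -0.25 (SE 0.12) that did not pass. Mthfd1l, which releases formate, was near control in every library (119 to 142 CPM against 123 to 146), with a 95% interval of the averaged log2 fold change from -0.27 to 0.20.

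Proline, asparagine and transamination enzymes fell in all 6 cases in the averaged comparison, where 4.15% of all tested genes fell. Their median log2 fold change was -0.88. Aldh18a1, which starts proline synthesis from glutamate, had 159, 202 and 175 CPM under shNT, against 114 and 102 under shDpep2.968 and 121 and 101 under shDpep2.759. Pycr1, which completes proline synthesis in mitochondria, had few counts: 3.93, 7.51 and 8.16 CPM under shNT, against 2.02 and 1.44 under shDpep2.968 and 2.30 and 1.52 under shDpep2.759. Neither gene's groups overlapped, and their averaged log2 fold changes were -0.70 (SE 0.11) and -1.84 (SE 0.27).

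Asns, whose printed window carries TGATGAAA, makes asparagine from aspartate and glutamine. Its level was 211, 247 and 269 CPM under shNT, against 149 and 165 under shDpep2.968 and 161 and 141 under shDpep2.759, an averaged log2 fold change of -0.65 (SE 0.11). Gpt2, the mitochondrial alanine transaminase, measured 54.5, 73.0 and 66.1 CPM in the shNT libraries, 28.04 and 30.7 in those of shDpep2.968 and 34.6 and 31.2 in those of shDpep2.759. That is 48.1% of the control level. Pck2, the mitochondrial enzyme that makes phosphoenolpyruvate, had 70.2, 108 and 120 CPM under shNT, against 35.5 and 29.95 under shDpep2.968 and 42.9 and 28.5 under shDpep2.759. Its averaged level was 34.4% of shNT (log2 fold change -1.54, SE 0.20), with shNT replicate 1 well below the other two controls. Got1, the cytosolic aspartate transaminase, changed least in this group: it measured 127, 150 and 148 CPM in the shNT libraries, 95.6 and 101 in those of shDpep2.968 and 124 and 121 in those of shDpep2.759, a log2 fold change of -0.37 (SE 0.10).

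Cysteine can be made from methionine through Cbs, which forms cystathionine, and Cth, which splits it. Cth was the member in which the hairpins differed most. It had 31.8, 44.7 and 42.6 CPM under shNT, against 8.9 and 8.29 under shDpep2.968 and 25.02 and 15.5 under shDpep2.759, so that the 3 groups did not overlap. Its averaged log2 fold change was -1.59 (SE 0.17), a call lost only when all Dpep2-hairpin libraries were fitted as 1 group (edgeR adjusted p = 0.085). Cbs was scarce, at 1.09, 2.47 and 2.01 CPM under shNT, against 0.520 and 0.634 under shDpep2.968 and 0.673 and 0.703 under shDpep2.759. It was below every shNT library in each Dpep2-hairpin library, and its averaged log2 fold change of -1.55 had a 95% interval from -2.32 to -0.79. Chac1, which degrades glutathione, measured 14.7, 26.2 and 21.5 CPM in the shNT libraries, 10.2 and 6.28 in those of shDpep2.968 and 14.5 and 10.2 in those of shDpep2.759. The groups were separate by a narrow margin, since shDpep2.759 replicate 1 nearly reached shNT replicate 1, and the averaged log2 fold change was -1.04 (SE 0.23).

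**Figure D2:**
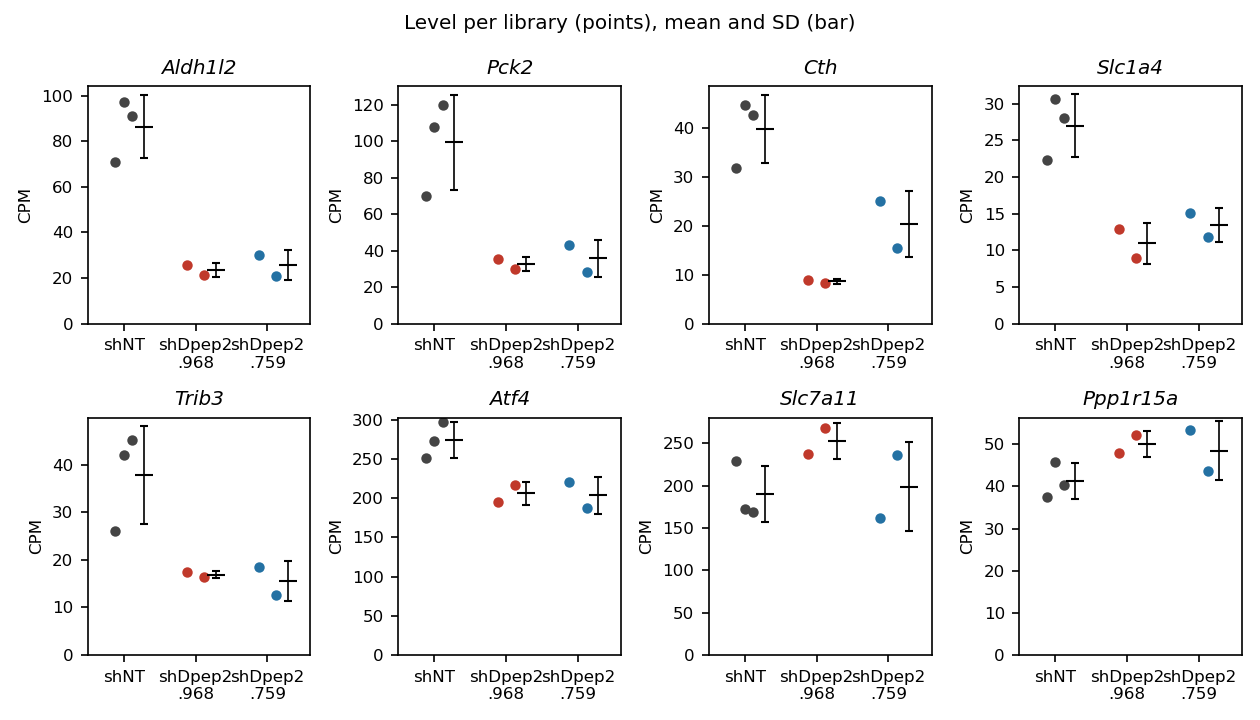
CPM of 8 members in each library (points), with the mean and SD of each group beside them (n = 3 for shNT, n = 2 for each Dpep2 hairpin) and every vertical axis starting at 0. Aldh1l2, Pck2, Slc1a4 and Trib3 are low with both hairpins, Cth is lowest with shDpep2.968 (8.6 CPM on average, against 20.3 with shDpep2.759), Atf4 is modestly lower, and Slc7a11 and Ppp1r15a are not below control on average with either hairpin.

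Of the 6 amino acid transporters 2 fell in the averaged comparison, against 4.15% of all tested genes. Slc1a4, a carrier of serine, alanine and other small neutral amino acids, had 22.3, 30.6 and 28.1 CPM under shNT, against 13.0 and 8.99 under shDpep2.968 and 15.0 and 11.8 under shDpep2.759. No Dpep2-hairpin library reached the control range, and the averaged level was 44.9% of shNT (log2 fold change -1.16, SE 0.16). Slc7a5, the light chain of the large neutral amino acid exchanger, measured 324, 428 and 376 CPM in the shNT libraries, 308 and 290 in those of shDpep2.968 and 259 and 279 in those of shDpep2.759, a log2 fold change of -0.41 (SE 0.11). Its heavy chain partner Slc3a2 ranged from 275 to 306 CPM in the Dpep2-hairpin libraries and from 270 to 314 with shNT, with a 95% interval of the log2 fold change from -0.28 to 0.18. Slc1a5, a glutamine carrier, and Slc7a1, a carrier of arginine and lysine, likewise overlapped with control, with log2 fold changes of -0.05 (95% interval -0.32 to 0.21) and -0.16 (95% interval -0.43 to 0.10).

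Slc7a11 imports cystine in exchange for glutamate and so offers the cell another source of cysteine than the Cbs and Cth route. It had 229, 173 and 169 CPM under shNT, against 237 and 268 under shDpep2.968 and 161 and 236 under shDpep2.759. Both shDpep2.968 libraries were above all shNT libraries, while shDpep2.759 replicate 1 was below them. Neither the averaged log2 fold change of 0.24 (95% interval -0.08 to 0.56) nor that of either hairpin alone (0.41 and 0.06) passed the threshold.

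None of the 7 transcription regulators passed with either hairpin alone in the main edgeR analysis. DESeq2, however, called Atf4 lower with shDpep2.968 (adjusted p = 0.0462) and with shDpep2.759 (adjusted p = 0.035). In the averaged comparison, where 4.15% of all tested genes fell, Atf4 itself was the only regulator that fell. Its messenger RNA measured 251, 273 and 297 CPM in the shNT libraries, 196 and 216 in those of shDpep2.968 and 221 and 187 in those of shDpep2.759. All Dpep2-hairpin libraries were below all shNT libraries, and the averaged level was 74.9% of control (log2 fold change -0.42, SE 0.11). RNA counts do not measure the ATF4 protein. Cebpg, a dimer partner of ATF4, ran from 41.2 to 46.3 CPM in the Dpep2-hairpin libraries and from 48.5 to 55.6 with shNT, and its log2 fold change of -0.25 (SE 0.10) did not pass. Ddit3, which encodes the stress factor CHOP, had 26.4, 48.2 and 44.6 CPM under shNT, against 25.8 and 26.2 under shDpep2.968 and 30.4 and 22.5 under shDpep2.759. The value of shNT replicate 1 lay within the Dpep2-hairpin range. The averaged log2 fold change of -0.60 (SE 0.20, edgeR adjusted p = 0.093) did not pass in the main analysis. It did pass without shNT replicate 1, with DESeq2 and with no filter on low counts. With each hairpin alone, Ddit3 likewise passed without shNT replicate 1 and with no filter on low counts. Atf3, Atf5 and Cebpb overlapped with control, with log2 fold changes of -0.00, 0.12 and -0.05 and SEs of 0.11 to 0.13. Nupr1, a small chromatin-associated stress protein, measured 26.0, 32.3 and 28.5 CPM in the shNT libraries, 23.4 and 20.6 in those of shDpep2.968 and 45.3 and 24.95 in those of shDpep2.759, so that a single library, shDpep2.759 replicate 1, was the highest of all.

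Stress effectors gave 2 decreases among 4 tested members in the averaged comparison, against 4.15% of all tested genes. Trib3, a pseudokinase that restrains signalling by AKT and ATF4, had 26.1, 42.1 and 45.2 CPM under shNT, against 17.3 and 16.4 under shDpep2.968 and 18.6 and 12.5 under shDpep2.759. The Dpep2-hairpin libraries, at 12.5 to 18.6 CPM, were below all controls, and the log2 fold change was -1.22 (SE 0.19). Ddit4, an inhibitor of the growth kinase mTORC1, measured 16.5, 23.8 and 23.0 CPM in the shNT libraries, 14.2 and 10.5 in those of shDpep2.968 and 17.96 and 12.2 in those of shDpep2.759. Here shDpep2.759 replicate 1 lay above shNT replicate 1, and the log2 fold change was -0.63 (SE 0.18). Sesn2, another mTORC1 inhibitor, was near control (46.7 to 55.7 CPM against 52.5 to 56.7, log2 fold change -0.12, SE 0.10), although its shDpep2.968 libraries (49.4 and 46.7 CPM) were below all controls. Ppp1r15a, which directs a phosphatase to eIF2 and so closes the feedback loop, had 37.5, 45.8 and 40.5 CPM under shNT, against 47.9 and 52.2 under shDpep2.968 and 53.4 and 43.6 under shDpep2.759. Both shDpep2.968 libraries were above all controls, but the averaged log2 fold change of 0.26 (SE 0.12) did not pass the threshold. It did pass after correction for GC content and length (0.39, adjusted p = 0.0119).

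Several calls in the averaged comparison were lost when 1 library was left out, while the log2 fold changes stayed negative. Atf4, Got1 and Mthfd2 were no longer called when any of 5 libraries was left out (shNT replicate 2 or 3, either shDpep2.968 library, or shDpep2.759 replicate 2), with log2 fold changes of -0.45 to -0.36, -0.39 to -0.34 and -0.42 to -0.35. For Slc7a5 these were shNT replicate 2 or 3, either shDpep2.968 library, or shDpep2.759 replicate 1 (-0.43 to -0.32). For Chac1 and Ddit4 they were replicate 2 of any group or shNT replicate 3 (-1.02 to -0.85 and -0.56 to -0.50), and for Cbs shNT replicate 2 or 3 or either shDpep2.968 library (-1.63 to -1.31). The decreases in Aldh1l2, Aldh18a1, Asns, Gpt2, Pck2, Psph, Pycr1, Slc1a4 and Trib3 kept their calls in all 16 alternative analyses.

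Against shNT, 13 of the 33 members fell with hairpin shDpep2.968, 11 fell with hairpin shDpep2.759, and none rose with either (edgeR, with 0 higher by DESeq2 and limma-voom as well). Of all tested genes 2.96% fell and 2.29% rose with shDpep2.968, and 2.00% fell and 2.72% rose with shDpep2.759. At an unadjusted p under 0.05 the hairpins had 20 and 19 members in either direction. The 10 members that fell with each hairpin were Psph, Aldh1l2, Aldh18a1, Pycr1, Asns, Gpt2, Pck2, Cth, Slc1a4 and Trib3. Of these, Aldh18a1, Asns and Trib3 lost the call with shDpep2.968 without shNT replicate 2 or 3. Aldh18a1 and Cth lost the call with shDpep2.759 without either of these, and Asns and Pycr1 without shNT replicate 3. The 2 comparisons share the shNT libraries, so their likeness is not independent. Got1, Cbs and Chac1 passed with shDpep2.968 alone and Phgdh with shDpep2.759 alone, but none of these 4 passed in the direct comparison of the hairpins. Mthfd2, Slc7a5, Atf4 and Ddit4 fell in the averaged comparison but passed with neither hairpin by itself in the main edgeR analysis. DESeq2 did call Mthfd2 and Atf4 lower with each hairpin, Ddit4 with shDpep2.968 and Slc7a5 with shDpep2.759. The count for shDpep2.968 was 3 without its replicate 2, 8 without its replicate 1, and 7 without shNT replicate 2 or shNT replicate 3, when 0.194%, 1.5%, 0.84% and 0.779% of all tested genes fell. The count for shDpep2.759 was 6 without shNT replicate 3, when 0.726% of all tested genes fell.

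**Figure D3:**
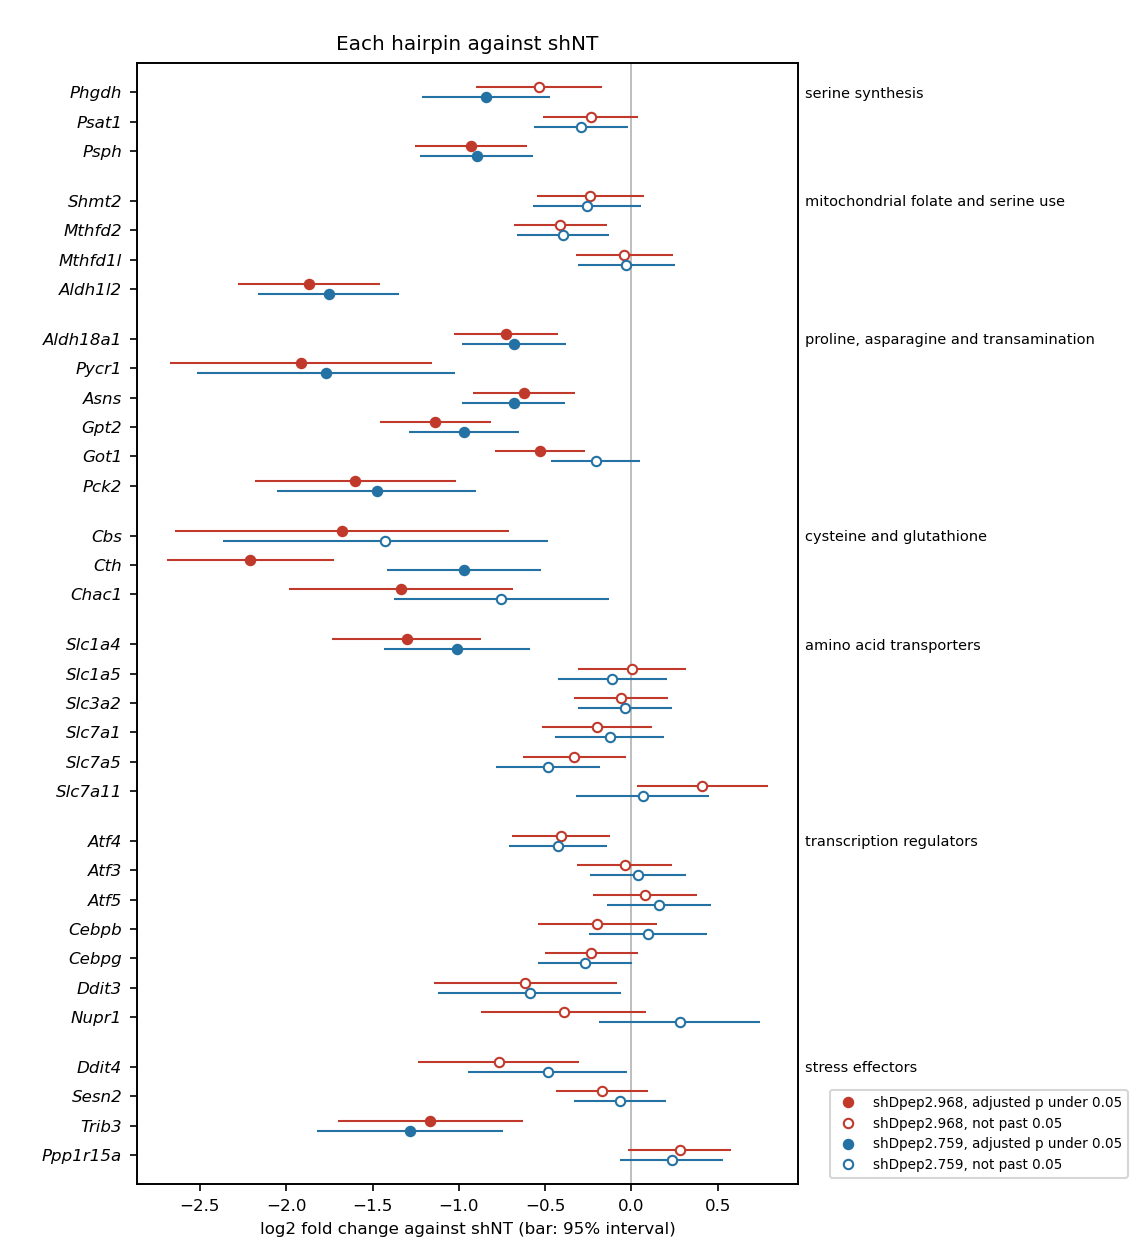
Log2 fold change of each tested member with shDpep2.968 (red) and shDpep2.759 (blue) against shNT, with 95% intervals from the quasi-likelihood fit; filled points passed an adjusted p of 0.05 over all tested genes. The intervals of the hairpins overlap for every member except Cth, at -2.21 with shDpep2.968 and -0.97 with shDpep2.759.

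The direct comparison of the hairpins did not use the shNT mean, though shNT libraries entered the filter, the scaling and the estimate of spread. In it 1 of 33 members was lower with shDpep2.968 than with shDpep2.759 and none was higher, against 0.585% and 0.255% of all tested genes. That member was Cth, with a log2 difference of -1.24 (SE 0.24, 95% interval -1.75 to -0.73, edgeR adjusted p = 0.0338). The call was lost without shNT replicate 3, without either shDpep2.968 library and without shDpep2.759 replicate 1, with adjusted p from 0.064 to 0.378 and log2 differences from -0.85 to -1.28, and with limma-voom (adjusted p = 0.0624). Without shDpep2.759 replicate 2, Nupr1 was also called lower (-1.03) and Slc7a11 higher (0.65) with shDpep2.968, in an analysis that called 642 lower and 428 higher among all tested genes, against 78 and 34 with all libraries. Within shDpep2.759 the level of 25.02 CPM in replicate 1 was above the 15.5 CPM in replicate 2. Got1 and Nupr1 had unadjusted p of 0.0283 and 0.0154, with log2 differences of -0.32 (95% interval -0.60 to -0.04) and -0.67 (95% interval -1.19 to -0.15), and did not pass (edgeR adjusted p = 0.274 and 0.226). For 28 of the 33 members the 95% interval of the difference lay within 1 log2 unit on either side of 0. The other 5 were Cth, Chac1 (-1.28 to 0.12), Nupr1, and the scarce Pycr1 (-1.01 to 0.72) and Cbs (-1.39 to 0.89). Dpep2 itself differed between the hairpins by -0.14 (95% interval -0.51 to 0.23).

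Genes of the same pathways outside the set were counted in the averaged comparison too, where 4.15% of all tested genes fell and 3.44% rose. Of 20 other genes linked to ATF4, 17 were tested, 2 fell and none rose (median log2 fold change -0.27). Slc6a9, a glycine transporter, measured 24.8, 30.6 and 23.1 CPM in the shNT libraries, 14.6 and 12.9 in those of shDpep2.968 and 14.9 and 11.8 in those of shDpep2.759, a log2 fold change of -0.95 (SE 0.14, edgeR adjusted p = 0.00153). It kept its call in every alternative analysis. Niban1, a stress-induced protein, fell by 0.48 on the log2 scale (SE 0.10), a call lost without shNT replicate 2 or 3.

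Of 35 further enzymes of amino acid and folate metabolism 33 were tested, 3 fell and 1 rose (median -0.03). Gpt, the cytosolic alanine transaminase, fell by 0.73 (SE 0.14), alongside the mitochondrial Gpt2. Glul, glutamine synthetase, fell by 0.54 (SE 0.12), and Aldh1l1, the cytosolic counterpart of Aldh1l2, fell by 1.32 (SE 0.34) from 1.15, 1.64 and 1.51 CPM with shNT. Mat2a, which makes the methyl donor S-adenosylmethionine, rose 1.49-fold (log2 fold change 0.58, SE 0.14). Gpt lost its call without shNT replicate 2, Glul without shNT replicate 2 or 3 or shDpep2.968 replicate 2, Mat2a without these or shDpep2.968 replicate 1, and Aldh1l1 without any of these or shDpep2.759 replicate 2.

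Upstream of ATF4, 19 genes of the eIF2 kinases and translation control were all tested, with 1 lower and 1 higher (median 0.01), or 5.26% each way, near the share over all tested genes. Eif2d, a non-canonical initiation factor, fell by 0.58 (SE 0.11), and Eif2ak2, the kinase activated by double-stranded RNA, rose 1.38-fold (log2 fold change 0.46, SE 0.12). The call of Eif2ak2 did not hold without replicate 2 of any group or shNT replicate 3. In the XBP1 and ATF6 branch of the unfolded protein response, 23 of 24 genes were tested, with 1 lower (4.35%, again near that share) and 2 higher (median 0.15). Dnajb9, an endoplasmic reticulum co-chaperone, rose 1.51-fold, Calr, the chaperone calreticulin, rose 1.30-fold, and Edem1, which acts in degradation of misfolded glycoproteins, fell by 0.38. These 3 calls were each lost in at least 5 of the 7 analyses that left out a library. Whether the lists differ from the members was not tested.

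**Figure D4:**
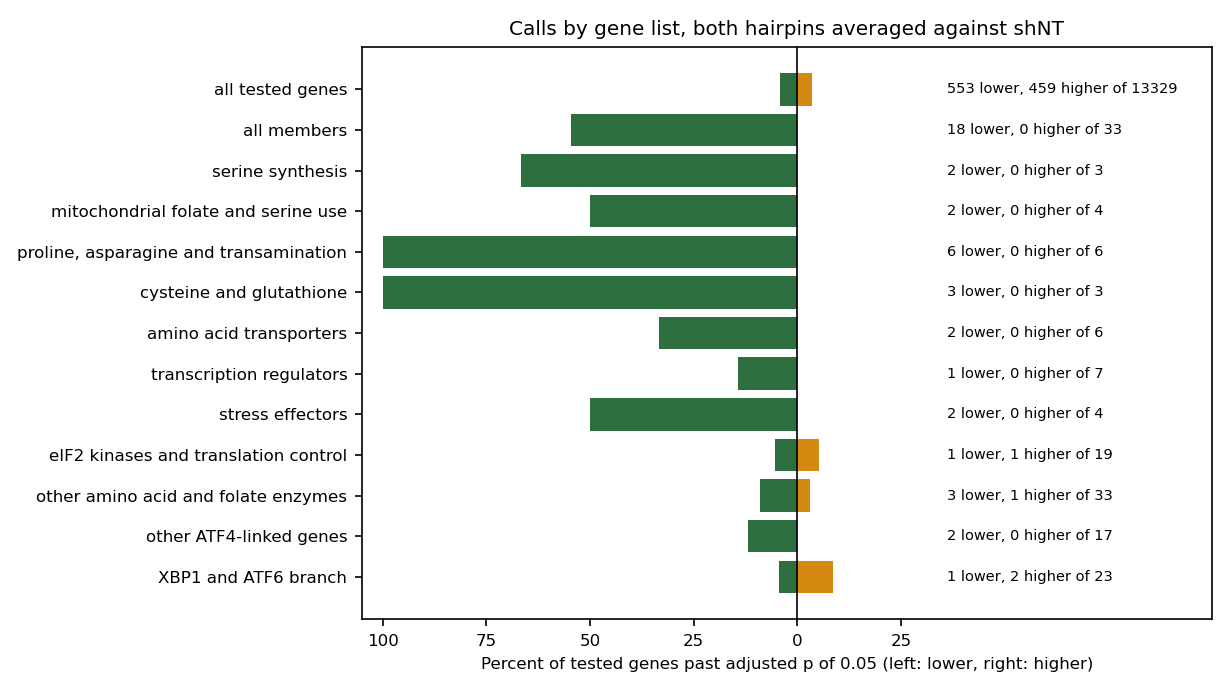
Share of tested genes that fell (green, to the left) or rose (orange, to the right) with both hairpins averaged against shNT, for all tested genes, the members, the members by role and 4 lists of related genes, with the counts at the right. The members' bar, 18 lower of 33, rests on a set chosen with these results known.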

How the data were processed

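RNA-seq counts per gene symbol for 7 RAW264.7 libraries were used as deposited. The authors' values were whole-number counts, read as such from the values in the file. Trim Galore and Salmon are named in the submitters' processing notes, without versions, and whether the counts are rounded Salmon estimates is not stated. The notes name build hg38, a human genome, while the symbols are mouse, so no coordinates were taken from the counts, and the annotation and strand setting were not stated. Reads of near-identical copies could be shared: Phgdh-ps1 had 8 to 29 counts a library.

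Groups came from the sample titles. Genes passing edgeR's filterByExpr (13329) were scaled by TMM and tested with edgeR 4.0.16 (R 4.3.3, quasi-likelihood, 3 group means, 4 residual degrees of freedom, biological coefficient of variation 13.8%), with Benjamini-Hochberg adjustment over all of them and a threshold of 0.05. The averaged comparison is the mean of the 2 hairpins minus shNT. CPM took as library size the total count times its TMM factor (0.969 to 1.02). Alternatives were DESeq2 1.42.0, limma-voom 3.58.1, other scalings and filters, a GC and length correction, pooled or separate groups, a replicate block, and each library left out. The analysis was tested on simulated data drawn from the model that it fits, which cannot show how it performs on these libraries.

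The genes named were all members, Dpep2 and up to 4 called genes with the smallest p from each of 4 pathway lists; markers were added after their values were seen, as were the promoter windows of Got1, Chac1, Slc7a11, Atf3 and Nupr1. Members and lists (roles, pathway lists and cell type markers) were chosen with earlier results of these data known. Pycr3 was read from its older symbol Pycrl.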

Additional observations from a re-analysis of the deposited data

Results flagged for a closer look

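Cth, the enzyme that splits cystathionine, is listed because the effects of the 2 Dpep2 hairpins against the same shNT libraries differed by a test of the difference itself. The log2 difference, shDpep2.968 minus shDpep2.759, was -1.24 (SE 0.24, edgeR quasi-likelihood test, Benjamini-Hochberg adjusted p = 0.0338 over all tested genes), with Cth lower in both shDpep2.968 libraries than in both shDpep2.759 libraries. Each Dpep2 hairpin had 2 libraries. The call was lost in 5 of 16 alternatives: with limma-voom (adjusted p = 0.0624) and, in edgeR, without shNT replicate 3, either shDpep2.968 library or shDpep2.759 replicate 1 (adjusted p from 0.064 to 0.378).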

How the results depend on the processing

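No called value changed direction in any of the 16 alternatives run for each member and comparison, whereas values that did not pass changed sign in 23, 17, 16 and 51 cases in the averaged, shDpep2.968, shDpep2.759 and between-hairpin comparisons. The count of 18 members that fell in the averaged comparison was 10 with a replicate block and 11 with all hairpin libraries as 1 group, and 10 to 19 when 1 library was left out. With other scalings, filters and tools it was 17 to 20. The count with shDpep2.968 (13) ranged from 3 to 16 and that with shDpep2.759 (11) from 6 to 15 when 1 library was left out. Correction for GC content and length gave 1 member higher (Ppp1r15a) in the averaged comparison and 1 with shDpep2.968, where there had been 0, and also moved Psat1 and Cebpg past the threshold. That correction took the genes called over the whole table from 553 lower and 459 higher to 1069 and 1072. Leaving out 1 library gave 0 to 1 member higher with shDpep2.759 (Nupr1, without its replicate 2). Between hairpins, the 1 member lower became 2 with no filter on low counts, 0 with limma-voom and 0 to 2 when 1 library was left out, and the members higher 0 to 1. The causes were not tested. Where a group was left with 1 library, that library was assumed to vary like the other groups. Deviations of same-numbered libraries from their group means had correlations from -0.23 to 0.07. With 2 libraries per hairpin these deviations mirror each other, so the correlations cannot decide whether the numbers pair samples. With the replicate block the counts for the separate hairpins were 9 and 9, and genes that fell over the whole table went from 553 to 218. Depth limits what can be said of the scarce Cbs and Pycr1, and of Vldlr, which had 0 counts.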
